A study of Mus musculus with 10 samples.

Results

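Broad H3K4me3 domains are stretches of chromatin over which trimethylation of histone H3 at lysine 4 runs far past the narrow peak of an ordinary promoter. In neural stem and progenitor cells (NSPCs) cultured from mouse brain, 641 such domains were found that were broad in both quiescent and activated cells. Each is an H3K4me3 peak of quiescent NSPCs on chromosomes 1 to 19 that is at least 4000 bp wide and overlaps a peak of activated NSPCs that is also at least 4000 bp wide. They make up 3.87% of the 16584 quiescent peaks on these chromosomes and hold 11.7% of the bases under them, 3.68 Mb in all. The activated list holds 15417 peaks. Of the peaks of at least 4000 bp in each list, 967 in quiescent and 708 in activated NSPCs, 66.3% and 90.5% belong to a broad domain, and every domain had 1 activated partner. The domains were selected on H3K4me3 width, so their widths and enrichment are given as a description, without a test.

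NSPCs were primary cultures from the brain of C57BL/6 mice at postnatal day 5, and such cultures mix stem cells with progenitors. Activated NSPCs grew with 20 ng/ml FGF2 and 20 ng/ml EGF. Quiescent NSPCs were kept without EGF, in 20 ng/ml FGF2 and 25 ng/ml BMP4, for 4 days by the labels. The methods give a shorter time for the ATAC-seq cultures. Reactivated NSPCs had been quiescent and were then returned to growth medium for 9 to 12 days. All groups share FGF2, and quiescent and activated cells differ in both EGF and BMP4, so that the parts of these factors cannot be told apart. H3K4me3 ChIP-seq was done on 1 library for each of the quiescent and activated states, each called against its own input, and ATAC-seq, which marks accessible chromatin by transposase insertion, on 2 libraries for each of the 3 states. All values come from deposited lists of peaks, which do not give the depth of a library, so the depth behind each peak is not known from them. The ATAC-seq lists hold 46071 to 59108 peaks on chromosomes 1 to 19 in quiescent and activated libraries, and 103186 and 103783 in the reactivated libraries, whose reads had been downsampled, as their peak names show. These are bulk samples, in which fewer cells with a mark and less of the mark in each cell cannot be told apart.

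H3K4me3 is laid down at active and poised promoters, mainly over CpG-rich DNA, by the SET1 and MLL families of methyltransferases. Most promoters carry a peak around the nucleosomes that flank the transcription start site (TSS), and a small share carry the mark far into the gene body. In many cell types such broad domains lie at genes that set or maintain the identity of that cell, among them transcription factors, and at long non-coding RNAs. BMP4 holds NSPCs in quiescence through SMAD proteins and Id genes, Notch signaling keeps them undifferentiated, and FGF and EGF drive them into the cell cycle.

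The promoters below are shown because they lie in the widest domains, by the mean of both widths, at genes of the stem cell, BMP and Notch lists, with the 2 widest shown for BMP. Each covers 270 bases before and 30 bases after the TSS of the gene closest to the strongest ATAC-seq summit of the domain, in the direction of the gene and read from GRCm38.p6, the assembly of mm10. Capitals mark CpG dinucleotides. The windows are chr3:34650135-34650434 for Sox2, chr1:59763130-59763429 for Bmpr2, chr16:30065070-30065369 for Hes1 and chr2:152735981-152736280 for Id1, all on the plus strand.
Sox2: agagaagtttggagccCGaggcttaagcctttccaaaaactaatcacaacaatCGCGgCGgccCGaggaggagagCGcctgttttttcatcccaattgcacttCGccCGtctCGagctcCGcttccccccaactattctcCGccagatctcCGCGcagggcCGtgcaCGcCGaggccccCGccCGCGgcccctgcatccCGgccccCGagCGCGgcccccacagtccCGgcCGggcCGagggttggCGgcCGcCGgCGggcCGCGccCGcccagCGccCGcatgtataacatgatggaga
Bmpr2: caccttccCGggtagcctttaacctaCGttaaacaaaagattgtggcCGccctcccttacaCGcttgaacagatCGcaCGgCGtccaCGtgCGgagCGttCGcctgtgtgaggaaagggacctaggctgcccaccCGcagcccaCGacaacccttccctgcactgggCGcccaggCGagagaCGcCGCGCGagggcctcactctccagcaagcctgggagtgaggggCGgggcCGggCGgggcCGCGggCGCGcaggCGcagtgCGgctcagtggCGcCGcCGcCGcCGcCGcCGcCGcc
Hes1: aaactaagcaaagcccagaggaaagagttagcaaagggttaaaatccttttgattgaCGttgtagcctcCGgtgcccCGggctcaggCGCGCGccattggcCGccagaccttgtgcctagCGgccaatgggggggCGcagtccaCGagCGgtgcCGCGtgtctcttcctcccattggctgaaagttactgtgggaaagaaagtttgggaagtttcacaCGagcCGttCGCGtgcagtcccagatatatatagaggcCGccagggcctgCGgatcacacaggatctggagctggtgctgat
Id1: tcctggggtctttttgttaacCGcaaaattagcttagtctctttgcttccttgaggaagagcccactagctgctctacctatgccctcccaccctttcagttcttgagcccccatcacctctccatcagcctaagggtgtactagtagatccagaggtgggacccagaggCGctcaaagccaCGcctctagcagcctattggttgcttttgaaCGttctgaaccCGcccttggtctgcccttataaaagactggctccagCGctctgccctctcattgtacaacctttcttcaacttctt

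These windows held 35 CpGs at Sox2, 36 at Bmpr2, 19 at Hes1 and 6 at Id1. The second window of the stem cell list, at Zbtb20, is not printed and held 0 CpGs. That of the Notch list, at Notch1, held 20. The Id1 window, alone among the 4 printed, held the letters TATAAA on either strand. The TSS used lay 1037 bp from the strongest summit of its domain at Id1, 494 bp at Sox2, 141 bp at Hes1 and 7 bp at Bmpr2. At Id1 and Sox2 the strongest summit thus lay outside the window. The windows are placed by annotated starts, and whether these are the starts used in NSPCs was not tested. Over the 688 genes whose TSS with the most annotated transcripts lies in a broad domain, the same window held a median of 24 CpGs, against 20 at the 10214 genes of narrower shared peaks and 11 over all 20800 windows. The GC box letters GGGCGG were found on either strand in 66.9% of the windows in domains, 66.6% of those in narrower shared peaks and 43.5% of all. CCAAT was found in 45.1%, 38.5% and 38.9%, and TATAAA in 9.45%, 6.11% and 13.0%. Promoters of broad domains and of narrower H3K4me3 peaks thus held the GC box at nearly the same share. Over their whole width the domains were not richer in CpG, with a median ratio of observed to expected CpG of 0.594 over 641 domains and 0.607 over 14018 narrower shared peaks, and a median GC content of 51.8% and 53.8%. Narrower shared peaks are quiescent peaks below 4000 bp that overlap an activated peak and no activated peak of 4000 bp or more.

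Mature microRNAs are shown because their hairpins lie in domains described below, with miR-9 in the widest and the fourth widest domain. Capitals mark the seed, bases 2 to 8, which pairs with target messages. The sequences are those of RefSeq on GRCm38.p6.
miR-9-5p: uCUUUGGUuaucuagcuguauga
miR-9-3p: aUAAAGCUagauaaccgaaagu
miR-125b-5p: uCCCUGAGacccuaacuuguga
miR-219a-5p: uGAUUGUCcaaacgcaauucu

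The last sequences are 100 bases around the summits of ATAC-seq sites inside domains. One is the strongest site with a peak in both quiescent and no activated library, and the other is the strongest with the reverse. Both sites also had a peak in both reactivated libraries. The quiescent one, chr19:8710205-8710304, lies in the domain of Slc3a2, and the activated one, chr1:66320913-66321012, in the domain of Map2. Capitals mark TTGGC or GCCAA, the half-site bound by NFI factors, the AP-1 letters TGANTCA, which neither window held, and the X-box core bound by RFX factors, all on either strand.
Slc3a2 site: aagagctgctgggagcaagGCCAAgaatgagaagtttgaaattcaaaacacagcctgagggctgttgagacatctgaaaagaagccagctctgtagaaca
Map2 site: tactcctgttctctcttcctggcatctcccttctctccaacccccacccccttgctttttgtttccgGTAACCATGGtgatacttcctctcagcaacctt

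The domains had nearly the same width in both states. Their median width was 5122 bp in quiescent NSPCs, from 4008 to 24023 bp, and 4859 bp in the activated partner, from 4002 to 23281 bp. Widths in the 2 libraries had a Spearman rho of 0.825 over the 641 domains, as a description of domains that were all cut at the same minimum. The overlap of the partners covered a median of 94.4% of the wider peak. The quiescent peak was the wider one at 479 domains (74.7%), which is close to the 73.9% of all 15061 overlapping pairs of H3K4me3 peaks. It was wider by 1.2-fold or more at 63 domains (9.83%), where 20.1% of all overlapping pairs passed that fold, and the activated peak was wider by that fold at 13 domains (2.03%), against 4.14% of all pairs. Since the same widths chose the domains, these shares show only that the remaining 565 domains stayed within 1.2-fold. The fold enrichment over input was also close, with a median of 39.0 in quiescent and 37.2 in activated NSPCs, against 31.2 for narrower shared peaks in quiescent cells. It was far apart at Nes, which encodes the intermediate filament nestin of neural progenitors, with 16.4 in quiescent and 46.8 in activated NSPCs, from 1 library each.

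**Figure D1:**
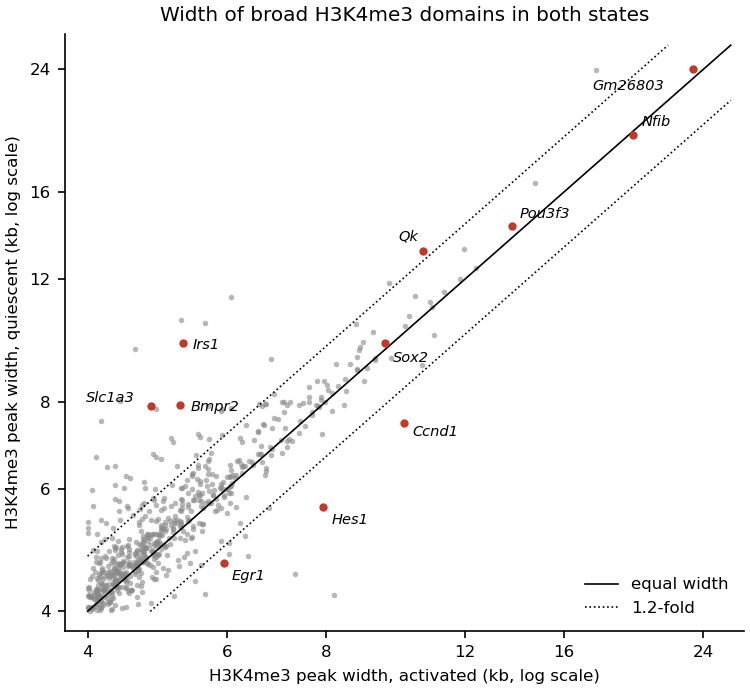
Width of the 641 broad H3K4me3 domains in activated (x axis) and quiescent (y axis) NSPCs, in kb on log scales, with 1 library per state. Grey points are domains, red points are named domains, the solid line is equal width and the dotted lines are 1.2-fold. Most points follow the solid line, while Irs1, Slc1a3 and Bmpr2 lie on the quiescent side and Hes1, Ccnd1 and Egr1 on the activated side.

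The 10 widest domains, ranked by the mean of both widths, included 6 at transcription factor genes and 2 at miR-9 genes. The widest, chr13:83718691-83742713, was 24023 bp in quiescent and 23281 bp in activated NSPCs and held the non-coding genes Gm26803 and C130071C03Rik and the hairpin of Mir9-2. The next, chr15:85664450-85688428, measured 23979 and 17583 bp. It held no TSS, lay inside the non-coding gene Lncppara, and ended 18.9 kb from the hairpin of Mirlet7b, a let-7 microRNA. Nfib, a nuclear factor I gene of glia and stem cells, followed with 19330 and 19556 bp, and the locus of Gm3764 and Mir9-1 with 16473 and 14695 bp. The other 6 each held 1 protein-coding gene, and 5 of these are transcription factor genes of the developing brain. Pou3f3, a POU factor, had 14302 and 13745 bp, Sall3 13244 and 11959 bp, Six3 12426 and 12380 bp, Meis2 12017 and 11828 bp, and the nuclear receptor Nr2f1 11505 and 11275 bp. The remaining one was Qk, which encodes an RNA-binding protein of glia, at 13157 and 10627 bp.

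Where the widths differed most, the count of peaks often differed too. The 5 domains with the highest ratio of quiescent to activated width included those of H2-Ke6, Slc39a7, Rxrb and Ring1 (9516 and 4595 bp), Pcdhgc4 and Pcdhgc3 (11314 and 6067 bp) and Irs1 (9720 and 5273 bp). At all 5 the quiescent peak lay over 2 activated peaks, of which only the wider counts as the partner. At Irs1, which encodes an adaptor of the insulin and IGF receptors, activated peaks together covered 8394 of the 9720 bp. At the other end, 3 of the 5 lowest ratios had an activated peak over 2 quiescent peaks, namely an interval without a TSS on chromosome 13 (4223 and 8182 bp), Nab2 with Nemp1 (4523 and 7306 bp) and Hes1 (5644 and 7946 bp), where quiescent peaks covered 6953 bp of the activated peak. Ccnd1, which encodes cyclin D1, had 7452 bp in quiescent and 10048 bp in activated NSPCs with 1 peak in each state, and Kcnc1, a potassium channel, 4796 and 6386 bp. In all, 8 of the 63 domains wider in quiescent NSPCs lay over 2 or more activated peaks, and 4 of the 13 wider in activated NSPCs had a partner over 2 or more quiescent peaks. Such splits were found at none of the other 565.

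The minimum of 4000 bp falls in a continuous range of widths. Just inside it were the early response gene Egr2 (4008 and 4023 bp), the nuclear receptor Nr4a2 (4016 and 4112 bp) and Serbp1 (4016 and 4284 bp). Just outside were 3110082J24Rik (3993 and 4074 bp), Jam2 (3988 and 4068 bp) and Gpr19 (3967 and 4097 bp). A minimum of 3000 bp gave 1899 domains and one of 5000 bp gave 260. A further 326 quiescent peaks of at least 4000 bp had no activated partner of that width, but all 326 overlapped an activated peak, with a median partner of 3521.5 bp, and 67 activated peaks had a quiescent partner below the minimum, with a median of 3661 bp.

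Nearly all domains contained an annotated transcript start of a protein-coding gene. A TSS of a protein-coding gene lay in 615 domains (95.9%, exact 95% binomial interval 94.1 to 97.3%, counting error only). It lay in 76.7% of the narrower shared peaks, which have fewer bases in which a TSS could lie. A further 20 domains held only a non-coding TSS and 6 held none. In all 758 protein-coding genes were covered, 3.64% of the 20807 on these chromosomes. One gene was covered at 486 domains, 2 genes at 113 and 3 or more at 16. Of these 16, 7 held runs of Hist1 genes on chromosome 13, with up to 5 histone genes in 1 domain, and 30 of 80 histone genes in all were covered by 11 domains. Histone genes are near-identical copies, so reads there could have been split or moved between copies and those widths are uncertain. So is that of the domain over 5S rRNA genes (n-R5s113) on chromosome 8, with 7501 and 4158 bp at a fold enrichment of only 5.67 and 5.66.

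Genes of neural stem and progenitor cells were covered more often than those of any other list examined, out of 24 lists in all. Of 24 such genes, 17 (70.8%) had a TSS in a domain, where 3.64% of all protein-coding genes did. Among the widest of these were Sox2 (9708 bp in quiescent and 9494 bp in activated NSPCs), the zinc-finger gene Zbtb20 (8904 and 8772 bp) and Sox21 (7989 and 7623 bp). Sox2 keeps neural progenitors undifferentiated, and Sox1, Sox9, Emx2, Foxo3, Cdh2, Vim and Nes were covered as well. Slc1a3, the glutamate transporter of radial glia and astrocytes, had 7874 bp in quiescent and 4804 bp in activated NSPCs, and Fabp7, a fatty acid binding protein of radial glia, 6608 and 5689 bp. The 7 genes of this list outside the domains included Pax6, which was above the minimum in quiescent NSPCs alone (4370 and 3410 bp), as was Bmi1 (5689 and 3321 bp). Nr2e1 had 3686 and 3793 bp, and Prom1 and Gfap carried no H3K4me3 peak at a TSS.

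Notch genes were covered at 7 of 14. The receptor Notch1 had 6701 and 5477 bp, the ligand genes Dll1 and Jag1 had 5301 and 5438 bp and 5084 and 4512 bp, and Rbpj, the DNA-binding partner of the Notch intracellular domain, 4055 and 4053 bp. The targets Hes1, Hes5 (5942 and 5508 bp) and Hey1 (6613 and 4952 bp) were covered too. The receptors Notch2 and Notch3 were not, with 2641 and 1714 bp in quiescent NSPCs.

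Of 22 BMP and Id genes, 3 were covered, namely the receptor gene Bmpr2 (7915 and 5231 bp), Id1 (4510 and 4466 bp) and Id3 (4410 and 4479 bp). The Id proteins bind bHLH factors and block them, and they are direct targets of BMP signaling. Fold enrichment was 57.9 in quiescent and 35.6 in activated NSPCs at Id1, and 70.1 and 48.3 at Id3, while the widths at both were nearly equal. Of the inhibitor genes of this list, 3 reached the minimum in quiescent NSPCs alone and are named here after their widths were seen. The inhibitory SMAD gene Smad7 had 9994 bp in quiescent and 3478 bp in activated NSPCs, Smad6 7075 and 2661 bp, and the secreted antagonist Nog 6091 and 2348 bp. These are widths of single called peaks. Whether the activated mark was split into several peaks there, as at the domains with the highest width ratios, is not given. The inhibitor genes Bambi, Fst, Chrd and Grem1 were below the minimum in both states, with 3315, 3504, 1480 and 1636 bp in quiescent NSPCs. All 22 genes carried an H3K4me3 peak in both states.

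Of 15 genes of EGF and FGF signaling and its ERK feedback, 8 were covered. These were the Sprouty genes, which damp the signal, Spry1, Spry2 (9073 and 8587 bp) and Spry4 (7184 and 7922 bp), Spred1, the ERK phosphatase gene Dusp6 (8434 and 8282 bp), the ETS factors Etv4 and Etv5, and the receptor gene Fgfr2. The receptor gene Egfr was not covered, with 3755 and 3940 bp. Cell cycle genes were covered at 6 of 20. The CDK inhibitor genes Cdkn1b (10939 and 10913 bp), Cdkn2c (7882 and 5672 bp) and Cdkn1a (6352 and 6725 bp) were among them, beside Ccnd1, Myc (6564 and 6455 bp) and E2f3 (4259 and 4681 bp). Immediate early genes were covered at 6 of 17, with Egr1 at 4690 and 5941 bp and Jun at 5223 and 5578 bp. Of the genes of H3K4 methylation itself 4 of 15 were covered, all of them methyltransferase genes. Setd1b had 10063 and 9172 bp, Kmt2d 5313 and 5098 bp, Kmt2a 4939 and 4742 bp, and Kmt2c 4380 and 4240 bp.

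Families of transcription factors were covered to very different extents. Sox genes were covered at 9 of 18, nuclear factor I genes at 2 of 4 (Nfib, and Nfia with 10287 and 10062 bp), the Klf, Sp and Zic families at 10 of 29, nuclear receptors at 5 of 22, homeobox genes outside the Hox clusters at 13 of 98 and Fox genes at 2 of 41. None of 39 Hox genes was covered, and 38 of them had no ATAC-seq peak within 1 kb of a TSS in any of the 4 quiescent and activated libraries. Among the covered homeobox genes were Pou3f2 (8571 and 7958 bp), Irx5 (9204 and 6815 bp), and Zeb2 (7339 and 7110 bp). Of genes that every cell uses, 5 of 72 cytosolic ribosomal protein genes (6.94%), 2 of 38 proteasome genes (5.26%) and 2 of 77 genes of oxidative phosphorylation (2.60%) were covered, beside the 3.64% of all genes. In each state 72, 36 and 72 of these carried an H3K4me3 peak at a TSS. The 3.64%, used beside every list, also counts unmarked genes. Of 20800 genes, 9898 had their TSS with the most transcripts in neither a domain nor a narrower shared peak.

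Lists of other cell types served to check the label of the cells. None of the 22 marker genes of microglia, endothelium, mesenchyme, muscle and liver was covered, and of these only Kdr and Col1a1 had an H3K4me3 peak at a TSS, of 1394 and 1273 bp in quiescent NSPCs. Of 17 genes of the neuronal lineage 1 was covered, Sp9 (6735 and 6606 bp), and 14 had an H3K4me3 peak at a TSS in each state. Of 13 oligodendrocyte lineage genes 2 were covered, Olig2 (9251 and 9228 bp) and Sox8 (7982 and 7202 bp), and 8 had a peak in each state. Of 24 stem and progenitor genes 22 had an H3K4me3 peak at a TSS in both states. Of 12 astrocyte genes Slc1a3 and Aldh1l1 (4929 and 4332 bp) were covered, and 11 had an H3K4me3 peak in quiescent and 7 in activated NSPCs, and the part of astrocyte-like cells in these widths was not tested.

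**Figure D2:**
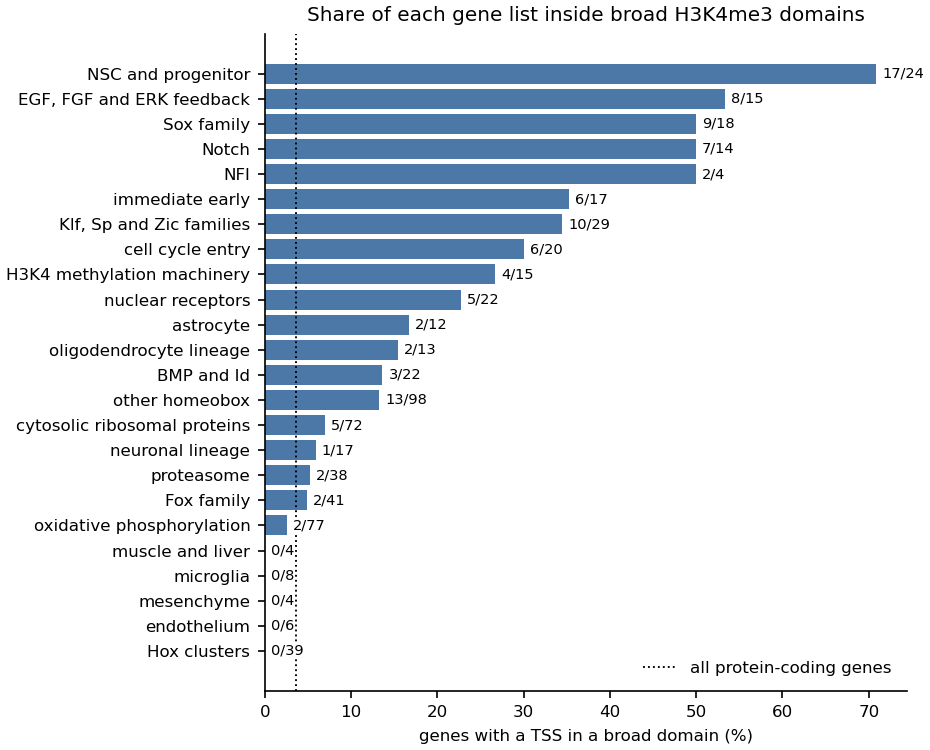
Share of the genes in each of 24 lists with a TSS in a broad H3K4me3 domain, in percent. Bars give the share, labels beside them the count of covered and listed genes, and the dotted line the 3.64% of all protein-coding genes. The stem and progenitor list is the highest, at 17 of 24, and the Hox clusters and the markers of microglia, endothelium, mesenchyme, muscle and liver are at 0.

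MicroRNA genes in domains were few. Hairpins of 16 of the 919 microRNAs in the RefSeq table on these chromosomes (1.74%) overlapped 12 domains, from the 4174 bp of the quiescent peak at Ankrd10 with Mir7238 up to 24023 bp. Mir9-2 and Mir9-1 lay in the widest and the fourth widest domain, as given above, and encode the same mature miR-9-5p and so the same seed, known for regulating neural progenitors. The hairpin of Mir9-3, chr7:79505264-79505353, lay in a quiescent peak of 8854 bp, but activated NSPCs had peaks of 3475 and 3495 bp there with a gap between them, so this locus was no domain by the rule. Mir125b-1 lay in a domain of 7493 and 7425 bp that held no protein-coding TSS. The non-coding host gene Mir99ahg had 2 domains, of 4542 and 4376 bp and of 4265 and 4297 bp, the latter 1.46 kb from the hairpin of Mir99a. Mir335 lay in the domain of the imprinted gene Mest (7760 and 8152 bp), and Mir219a-1 in that of H2-Ke6 and Ring1. Among the other domains without a protein-coding TSS were those of the abundant nuclear RNAs Malat1 (8896 and 8770 bp) and Neat1 (7912 and 8424 bp) and of Sox2ot (4200 and 4036 bp), the non-coding gene around Sox2.

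The domains ran mainly into the gene. At the 486 domains with 1 protein-coding gene, the quiescent peak reached a median of 1149 bp upstream and 4086.5 bp downstream of the TSS with the most transcripts, and the activated peak 1116 and 3826 bp. The downstream side was the longer at 449 of 486 (92.4%). The quiescent edge lay further out by a median of 158 bp downstream and of 38.5 bp upstream. ATAC-seq peaks stayed close to the TSS. At 1 kb downstream 99.6% of the domains lay in the quiescent H3K4me3 peak, but only 9.47% to 18.9% lay in an ATAC-seq peak, depending on the library.

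**Figure D3:**
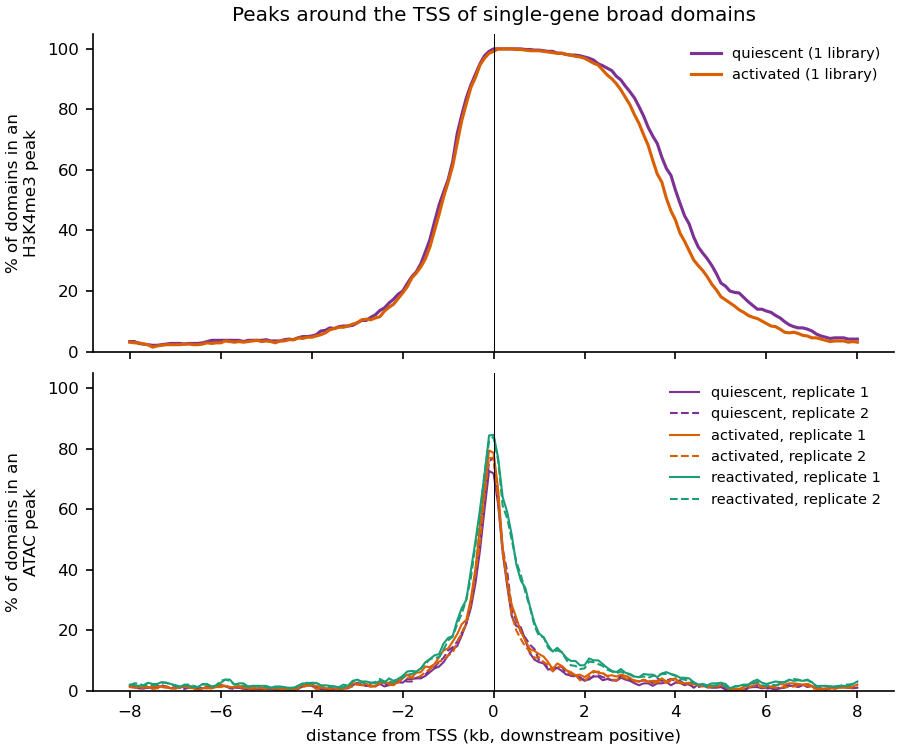
Share of the 486 broad domains with 1 protein-coding gene that lie in an H3K4me3 peak (top, 1 line per state) and in an ATAC-seq peak (bottom, 1 line per library), in percent, by distance from the TSS in kb with downstream positive. H3K4me3 extends several kb downstream, with the quiescent line slightly further out, while ATAC-seq peaks cover 9.47% to 18.9% of the domains at 1 kb downstream in the 6 libraries.

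Accessible sites were found in almost every domain. A summit of an ATAC-seq peak lay inside 624 of the 641 domains in all 4 quiescent and activated libraries. This was 97.3% (exact 95% binomial interval 95.8 to 98.4%, counting error only), against 73.8% of the narrower shared peaks. With ATAC-seq peaks of a −log10 q of at least 10, it was 91.3%. The domain of Sox2ot was the one without a summit in any of these 4 libraries, and it held peaks in reactivated replicate 1 alone, over 373 bp. No domain was without a summit in all 6 libraries. The number of merged sites of the 6 libraries per domain had a median of 3 and a range of 1 to 9. It was highest at Nfib and Zeb2 with 9, followed by Gm26803 with Mir9-2, Pou3f3 and Sox6 with 8. Wider domains held more sites, with a Spearman rho of 0.335 over 641 domains, which is a description, since a longer stretch has more room for sites.

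A smaller part of a broad domain was accessible than of a narrower peak. ATAC-seq peaks covered 15.4% and 16.6% of the domain bases in the 2 quiescent libraries, 17.97% and 16.3% in the activated libraries and 23.7% and 22.8% in the reactivated libraries. In narrower shared peaks they covered 23.7% and 24.9%, 27.7% and 23.6%, and 40.2% and 39.4%. The domains were lower in 6 of 6 libraries, with a mean difference of −11.1 percentage points. Domains were chosen by width, width is the denominator here, and most sites lie near a TSS, so this difference follows in part from the choice and is given without a test. Summits were sparser too, with a mean difference of −0.355 per kb and 0.486 to 0.760 per kb in the domains and 0.754 to 1.25 per kb in narrower peaks, with the same denominator. Per region the order was the opposite, with 2.79 to 4.37 summits per domain and 1.37 to 2.26 per narrower peak. Against narrower peaks of at least 2000 bp the difference was −9.44 points, and between peaks with a protein-coding TSS on both sides −10.4 points. Leaving out any 1 of the 6 libraries gave differences of −11.9 to −10.01 points.

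**Figure D4:**
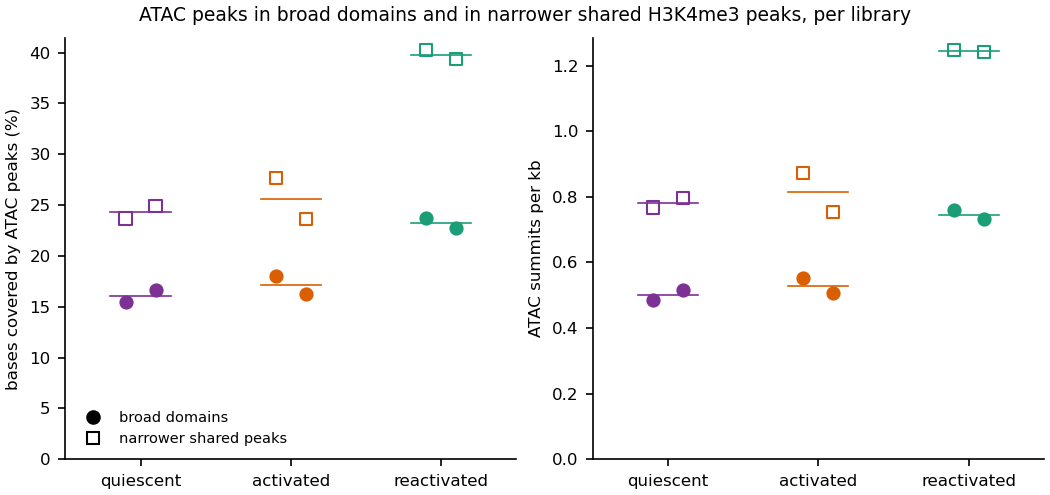
Bases covered by ATAC-seq peaks, in percent (left), and ATAC-seq summits per kb (right), in broad domains (filled circles) and narrower shared H3K4me3 peaks (open squares). Each point is 1 library, with 2 per state, and the lines are means. Domains lie below narrower peaks in all 6 libraries, and both rise in the reactivated libraries, whose lists are the longest.

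The accessible part of the domains was next compared between quiescent and activated NSPCs. With the lists as deposited it was 16.02% ± 0.811 (SD, n = 2) in quiescent and 17.1% ± 1.19 (SD, n = 2) in activated NSPCs, a difference of −1.11 points (two-sided exact permutation test, p = 0.667, where 2 libraries against 2 cannot go below 0.333). The values of the states overlapped, since quiescent replicate 2 lay above activated replicate 2. With each list limited to its 46071 strongest peaks they did not overlap, with 14.5% and 15.1% in quiescent and 16.4% and 16.3% in activated libraries (difference −1.56 points, exact permutation p = 0.333, the smallest possible). Leaving out 1 library in turn moved the difference between −1.95 points, without activated replicate 2, and −0.268 points, without activated replicate 1. Without quiescent replicate 1 it was −0.535 points and without quiescent replicate 2 −1.68 points. Summits per kb were 0.50 ± 0.0205 in quiescent and 0.529 ± 0.0328 in activated libraries (SD, n = 2, exact permutation p = 0.667), a difference of −0.0285. With lists of equal length the difference was −0.0505 without overlap (exact permutation p = 0.333), and with abutting or overlapping peaks joined it was −0.0132. Omitting 1 library moved it between −0.0517, without activated replicate 2, and −0.00529, without activated replicate 1. The share of all ATAC-seq peaks of a library that lay inside domains was 3.34% and 3.21% in quiescent and 3.57% and 4.04% in activated libraries. These did not overlap, but the exact permutation p of 0.333 is the smallest this design allows. The difference of −0.532 points became −0.768 points without activated replicate 1 and −0.296 points without activated replicate 2. Across the 3 states the covered part ranged over 7.23 points, with 23.2% ± 0.682 (SD, n = 2) in reactivated NSPCs (exact permutation test over 15 ways to form 3 pairs, p = 0.133, smallest possible 0.0667). With each list limited to its 46071 strongest peaks that range was 1.61 points (exact permutation p = 0.2).

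Covered bases of single domains were compared between the libraries of both states. ATAC-seq peaks covered more bases in both quiescent than in both activated libraries at 93 domains (14.5%), against 14.0% of all 14659 domains and narrower shared peaks together, which is the background share. The reverse held at 186 domains (29.0%), against a background of 20.5%. With lists of equal length these counts were 85 (13.3%, background 13.53%) and 218 (34.01%, background 22.2%). Most of the background is narrower shared peaks, of which 10.4% had no summit in any of these 4 libraries, against 0.156% of the domains. The part of width in these shares was not tested. The share higher in quiescent libraries was near the background in both settings. The domains with the largest such differences are named here after their values were seen. Id1 had 869 and 1155 covered bp in the quiescent, 432 and 656 bp in the activated and 1165 and 1048 bp in the reactivated libraries. Bmpr2 had 1119 and 1011, 801 and 378, and 1397 and 1578 bp. At both genes the quiescent libraries lay above the activated ones without overlap. The reactivated libraries did too, but their lists are the longest, and values at equal list length are not given for single genes. Over all domains, lists of equal length covered 16.5% and 16.3% in the reactivated and 16.4% and 16.3% in the activated libraries. Id3, the third covered gene of the BMP list, had 354 and 365 bp in the quiescent and 345 and 321 bp in the activated libraries, a much smaller difference. Sox4 had 1219 and 1117, 679 and 691, and 856 and 1150 bp, and Gas1, a growth arrest gene, 1555 and 1525, 1185 and 845, and 1322 and 1531 bp. In the other direction, Fscn1, an actin-bundling protein, had 366 and 221 bp in the quiescent and 1428 and 992 bp in the activated libraries. Lfng, a glycosyltransferase that modifies Notch receptors, had 763 and 1038 bp and 1671 and 1618 bp.

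Covered bases at other genes named above are given next, for the same libraries. Sox2 had 475 and 630 bp in the quiescent, 1190 and 1010 bp in the activated and 1496 and 1213 bp in the reactivated libraries. Quiescent and activated values thus did not overlap. The higher reactivated values come from the longest lists as deposited, and the part of list length was not tested at this gene. Olig2 had 967 and 1089, 1568 and 1425, and 1829 and 1641 bp. Hes1 had 1267 and 1183 bp in quiescent and 878 and 1150 bp in activated libraries, and Notch1 1156 and 923 bp and 1170 and 1136 bp. Pou3f3, where a domain of over 13 kb held few accessible bases, had 1020 and 920 bp and 1507 and 1433 bp. Slc1a3 went the other way, with 1067 and 1165 bp and 960 and 895 bp. With 2 libraries per state none of these single domains can be tested below an exact p of 0.333.

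**Figure D5:**
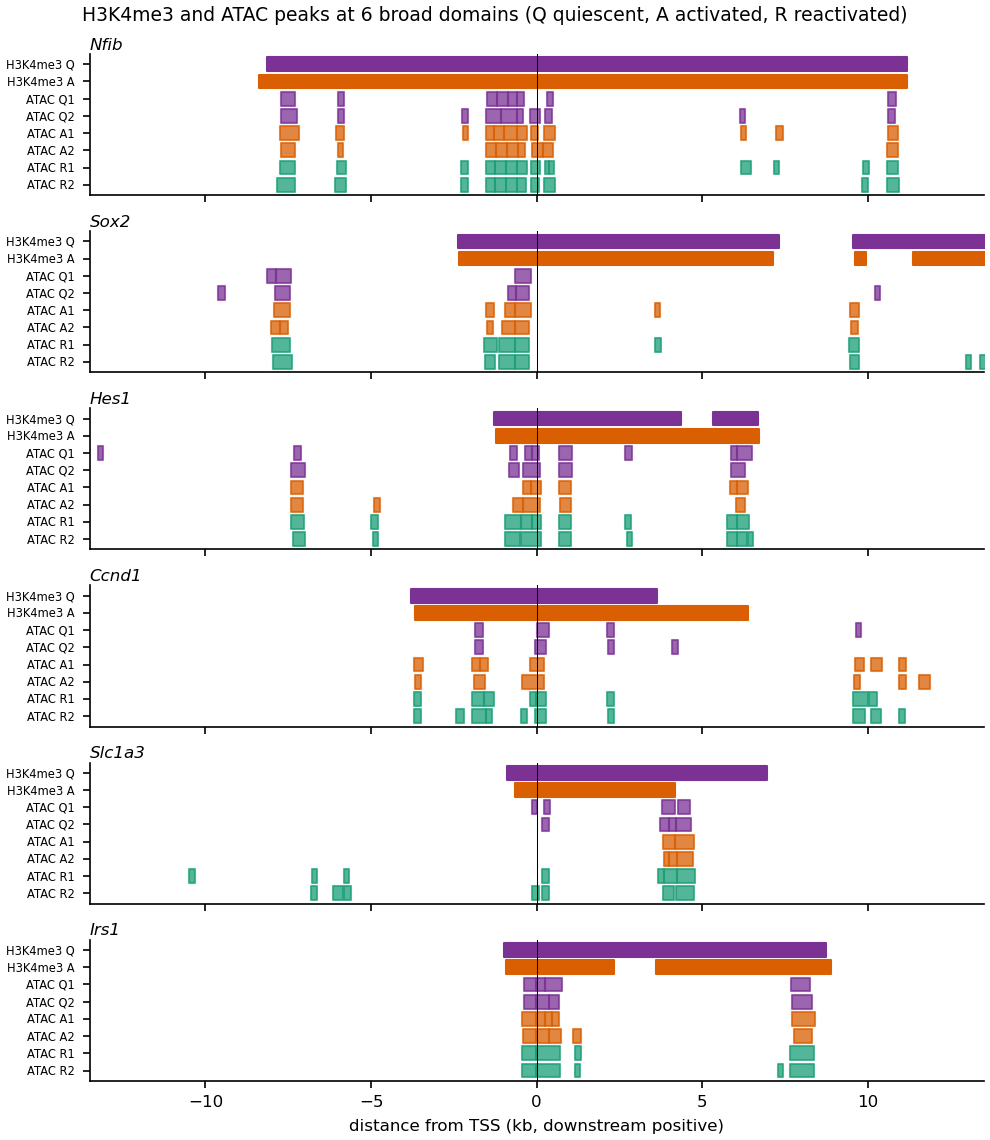
H3K4me3 peaks (top 2 rows of each map) and ATAC-seq peaks (6 rows, 1 per library) at the domains of Nfib, Sox2, Hes1, Ccnd1, Slc1a3 and Irs1, by distance from the TSS in kb with downstream positive. Purple is quiescent, orange activated and green reactivated. Activated peaks are split at Irs1 and quiescent peaks at Hes1, and the activated peak reaches further downstream at Ccnd1. At Slc1a3 a site close to the TSS has a called peak in the quiescent and reactivated libraries and none in the activated ones.

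Most accessible sites inside the domains were open in both states. Overlapping ATAC-seq peaks of the 4 quiescent and activated libraries were merged, and 1257 sites with a peak in at least 2 libraries had a summit in a domain. Of these 1162 (92.4%) were open in quiescent and activated NSPCs alike, in 1 or more libraries of either, against 75.1% of all 45470 sites and 94.6% of the sites in narrower shared peaks. Peaks in both quiescent and no activated library were found at 35 sites (2.78%, exact 95% binomial interval 1.95 to 3.85%, counting error only), where 14.8% of all sites were quiescent-specific. Peaks in both activated and no quiescent library were found at 60 sites (4.77%, interval 3.66 to 6.10%), where 10.1% of all sites were activated-specific. In narrower shared peaks the shares were 1.71% and 3.67%. Within 1 kb of a protein-coding TSS lay 74.1% of the sites in domains and 31.3% of all sites. Beyond 1 kb, 33 of 325 sites in domains (10.2%) were activated-specific and 13 (4.00%) quiescent-specific, against 12.9% and 20.0% of all sites beyond 1 kb. In narrower shared peaks these shares beyond 1 kb were 8.38% and 3.38%, so the low quiescent-specific share was not particular to the domains. The counts depend on each library. With a −log10 q of at least 10 they were 20 quiescent-specific and 59 activated-specific sites (2.02% and 5.97%, against 11.7% and 11.2% of all sites). When only 1 library stood for a state they were 98 and 92 without quiescent replicate 1 (6.76% and 6.34%, against 23.9% and 9.30% of all sites), and 82 and 142 without quiescent replicate 2 (5.75% and 9.95%, against 20.6% and 11.5%). They were 69 and 98 without activated replicate 1 (4.87% and 6.92%, against 15.9% and 12.05%), and 46 and 140 without activated replicate 2 (3.17% and 9.66%, against 11.5% and 16.8%). The larger count was the quiescent-specific one without quiescent replicate 1 and the activated-specific one otherwise.

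The strongest sites of each kind are given with their heights. Among quiescent-specific sites these were a site in the domain of Slc3a2, a subunit of amino acid transporters, with fold enrichments of 6.22 and 4.61 in the 2 quiescent libraries, one at Nol4 with 5.07 and 3.70, and one 521 bp from a TSS at Ccnd1 with 4.42 and 3.99. Thus Ccnd1, the domain that reached further in activated NSPCs, held a site with a called peak in the quiescent libraries only, of these 2 states. It also held 1 activated-specific site. At Slc1a3 a quiescent-specific site lay 3 bp from a TSS, with 3.80 and 4.32. Among activated-specific sites the strongest lay in the domains of Map2, a microtubule-associated protein of neurons, with 7.55 and 5.38, of Ddr1, a collagen receptor, with 5.87 and 5.67, and of H2-Ke6 and Rxrb with 6.15 and 5.07. Next came Pou3f3 with 5.02 and 5.08, at 8238 bp from the nearest protein-coding TSS, and Ptch1, the Hedgehog receptor, with 5.76 and 4.49. In the reactivated state 27 of the 35 quiescent-specific sites (77.1%) and 55 of the 60 activated-specific sites (91.7%) had a peak in both libraries. For all sites of each kind these shares were 55.0% and 92.0%, and for those in narrower shared peaks 83.3% and 96.4%. Sites with peaks in both reactivated libraries and in none of the other 4 were 166 of 1779 merged sites in domains (9.33%) and 14.5% of all merged sites.

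The letters TTGGC were found within 100 bases around the summit at 8 of 35 quiescent-specific and 17 of 60 activated-specific sites in domains (22.9% and 28.3%), against 28.2% of the shared sites in domains and 34.3% and 27.5% of all sites of each kind. TGANTCA was found at 1 and 2 of these sites, and at 3.86% and 7.81% of all quiescent-specific and activated-specific sites.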

How the data were processed

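H3K4me3 ChIP-seq and ATAC-seq peak lists of mouse NSPCs were used as deposited, aligned to mm10, and the 2 input libraries were used here only as the authors' control for peak calling. Per the submitters' processing notes, reads passed through Trim Galore 0.4.0, Bowtie2 2.2.5, SAMtools 1.3.1, Picard 1.88 and HOMER, and the authors called peaks with MACS2, broad for H3K4me3. Each deposited list gives a fold enrichment (a ratio over background or input), −log10 p-values and −log10 q-values. The lowest −log10 q was 1.30 for ATAC-seq and 2.03 for H3K4me3. Peaks were called per library, without pooling, and the score column was not used. For the reactivated libraries the authors called peaks on downsampled reads. A list holds only what passed the authors' threshold, so the width of a peak and the length of a list can move with the depth of the library, which was not used here.

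Domains were chosen as described above, with an overlap of at least 1 bp and the activated partner of the largest overlap. TSSs were all transcript starts of GENCODE M21, and promoter and microRNA sequences came from RefSeq and the GRCm38.p6 assembly. ATAC-seq peaks were counted by summit. Sites were overlapping or abutting peaks of the libraries, merged. The domains and gene lists were chosen with earlier results of these data known. Named are the 10 widest domains, the 5 highest and 5 lowest width ratios, the 5 with most sites, those without a summit, the 3 strongest sites of each state, the 3 domains on each side of the minimum and the members of the lists. Some of these are not reported here. Other names were chosen after their values were seen. Quiescent, activated and reactivated libraries were compared by exact permutation tests, domains and narrower peaks without a test since width chose the domains, and binomial intervals were Clopper-Pearson at 95%. The study calls its libraries independent replicates, and p-values measure only the spread between these. Scripts (Python 3.11.15, NumPy 2.4.6, pandas 2.3.3, SciPy 1.17.1) were tested on simulated peaks, where 100 of 100 planted domains and 40 of 40 planted state-specific sites were recovered. Alternatives were other width minimums, overlap rules, joining of peaks, TSS sets, q thresholds, lists of equal length, and each library left out in turn.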

Additional observations from a re-analysis of the deposited data

Results flagged for a closer look

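The rule for broad domains covered chromosomes 1 to 19, so chromosome X was left out of every comparison. By the same widths chromosome X held 18 further domains among 568 quiescent H3K4me3 peaks, or 3.17 per 100 peaks, and none was found on chromosome Y or on unplaced contigs. All 18 held a protein-coding TSS, and 14 were wider in quiescent NSPCs. The widest was at Pou3f4, a POU factor of the developing brain, with 7947 bp in quiescent and 7075 bp in activated NSPCs. The H3K27 demethylase gene Kdm6a had 4172 and 4240 bp and Ogt, an O-GlcNAc transferase gene, 4102 and 4128 bp.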

How the results depend on the processing

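A minimum of 3000 bp gave 1899 domains over 2234 protein-coding genes and one of 5000 bp gave 260 domains over 299 genes. With the 708 widest peaks of each list, 78.9% of the domains were wider in quiescent NSPCs. The share with a protein-coding TSS was 85.6% from the 5′ end of each gene record alone and 99.1% with all gene types, and the share with a summit in all 4 libraries was 91.3% at a −log10 q of at least 10. At that q there were 20 quiescent-specific sites. With each library left out in turn the counts ran from 46 to 98 quiescent-specific and from 92 to 142 activated-specific sites, since 1 library then stands for a state. With these same omissions the difference between domains and narrower peaks ran from −11.9 to −10.01 points and from −0.376 to −0.324 summits per kb. Under the other settings it ran from −10.4 to −8.96 points and from −0.325 to −0.213 summits per kb. The smallest values came with a −log10 q of at least 10 for points and with abutting or overlapping peaks joined for summits. Joining peaks within 500 bp changed no count of domains, and joining within 1000 bp, chosen after seeing the data, gave 648. No difference changed sign under these alternatives, but the order of the 2 counts of specific sites turned without quiescent replicate 1 (98 and 92).

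With the replicate number as a block (replicate block), the covered part differed by −1.11 points (exact p = 1), summits by −0.0285 per kb (exact p = 1) and the share of peaks inside domains by −0.532 points (exact p = 0.5, the smallest possible). Deviations of libraries with the same number correlated at −0.0496 between quiescent and activated NSPCs, so the data gave no sign of pairing. The methods use the replicate as a block, for library preparation, in a comparison not analysed here. Depth, H3K4me3 replicates and the height of the mark along a domain could not be assessed from these lists, and a peak just under a threshold counts as absent.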

Other observations

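The 326 H3K4me3 peaks that were broad in quiescent NSPCs alone were not domains. Examples chosen after their widths were seen are Id2 (4306 bp in quiescent and 3484 bp in activated NSPCs), the BMP receptor gene Bmpr1a (4611 and 3459 bp), Nfix (5162 and 3544 bp), and Olig1 (9413 and 3675 bp), a neighbour of the covered gene Olig2. With 1 library per state these differences have no replicate check. The widths are those of single called peaks, and splits of the activated mark were counted only for the domains.

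The X-box core bound by RFX factors was added to the motifs after the windows of the strongest sites had been seen. On either strand it stood within 100 bases at 8 of 60 activated-specific sites in domains (13.3%), 1 of 35 quiescent-specific sites and 9.47% of the shared sites in domains. Over all sites the shares were 10.9%, 6.11% and 9.40%. Without the 3 strongest activated-specific sites, in which it had been noticed, 5 of 57 (8.77%) held it.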
